A study of Mus musculus with 7 samples.

Results

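Of the 26130 genes in the count table, 10 that encode granule proteins and alarmins of myeloid cells were followed across sorted lung cells. They were S100a8, S100a9, Lcn2, Prtn3, Elane, Mpo, Ngp, Ltf, Lrg1 and Cd177, and they were taken from the table by gene symbol. The set had been picked with the values of these same libraries known, so the members' levels and differences are given as a description. How many of them passed the threshold of the model is given beside the share or number of all genes that did, and supports nothing. Enough counts to enter the statistical model were found for 8 of the 10, and Elane and Mpo had too few.

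The cells came from lungs of mice that carried both an Fth1-mScarlet reporter of ferritin heavy chain, the iron-storage protein, and the Lyz2GFP reporter, in which the lysozyme gene of myeloid cells drives GFP. The sort collected GFP-positive cells with CD11b and Ly6C on the surface, left out cells with Ly6G, the surface marker of neutrophils, and split them by low or high mScarlet signal. Untreated Fth1-low cells (n = 2) came from mice that received nothing. LPS Fth1-low cells (n = 2) and LPS Fth1-high cells (n = 3) came from mice killed 3 days after 20 µg of lipopolysaccharide (LPS, the endotoxin of gram-negative bacteria, here of E. coli) had been instilled into the trachea in a volume of 50 µl. All 3 groups shared both reporter alleles. Neither the age of the mice nor whether a library was 1 mouse or a pool is given in the sources used here, so p-values measure the spread between libraries, part of which may be technical. The libraries are named by group and label number: U1 and U2 (untreated Fth1-low), L1 and L2 (LPS Fth1-low), and H1, H2 and H3 (LPS Fth1-high). Cells of the Fth1-high gate from untreated mice were not analysed here, so where LPS Fth1-high is set against untreated cells, treatment and gate cannot be told apart. In sorted bulk cells, more cells that express a gene and more RNA per cell cannot be told apart either.

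Granules of neutrophils are built in order during development in the bone marrow: primary granules, with Mpo, Elane and Prtn3, come first, and secondary granules, with Ltf, Ngp and Lcn2, follow. S100a8 and S100a9 pair to form calprotectin, a calcium-, zinc- and manganese-binding protein of the cytosol of neutrophils and monocytes that acts as an alarm signal once released. Lcn2 and Lrg1 are also made outside neutrophils during inflammation, and Cd177 is a surface protein best known from neutrophils.

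Total counts per library lay between 637787 (L1) and 27997007 (H3). L1 stood apart: the others were 16.4 to 43.9 times as deep, and Rn45s, a ribosomal RNA gene, took 17.8% of its counts against 1.66% to 8.0% in the others. In that library 3 counts equal 5.02 CPM, the unit of level used below, which relates a count to the TMM-scaled size of its library. In the other 6 it equals 0.106 to 0.280 CPM, so in L1 the values of sparse genes rest on very few reads. Across genes its correlation with L2 was 0.863, against 0.964 for the untreated pair and 0.960 to 0.980 for the LPS Fth1-high libraries.

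The name under which the genes were grouped, genes of immature myeloid cells, was set against markers. Ly6g had 0 to 2 counts in each library, Ms4a3, a marker of granulocyte-monocyte progenitors, had 4 counts in L2 and 0 in the other 6, and Prss57 had 0 to 4. The neutrophil genes Cxcr2 and Retnlg stayed at or below 4.27 and 3.39 CPM, but other genes of the list did move with the members. Il1r2, a decoy receptor for interleukin 1, was 16.2 and 16.1 CPM in untreated, 53.6 and 59.5 CPM in LPS Fth1-low and 14.1, 9.43 and 8.38 CPM in LPS Fth1-high libraries, the pattern of Prtn3 and Lrg1. Cxcl3, a neutrophil chemoattractant, was 0.0833 and 0.280, 6.70 and 11.2, and 35.4, 53.3 and 147 CPM, the order of Lcn2. Of the 10 markers 9 were tested, and 2 were called higher in LPS Fth1-low than untreated cells, against 2.99% of all tested genes. Between the gates 1 was higher and 2 were lower in LPS Fth1-high, against 3.68% and 4.57%. Their part in the members' values was not tested. The summed level of 10 mature neutrophil markers was 790 and 699.8 CPM in untreated, 1009.5 and 1146 CPM in LPS Fth1-low and 706, 778 and 844 CPM in LPS Fth1-high libraries, and most of it was Csf3r and Trem1. The 10 progenitor markers summed to 15.0 to 42.3 CPM in untreated, 31.0 to 38.5 CPM in LPS Fth1-low and 18.1 to 26.8 CPM in LPS Fth1-high libraries. The leukocyte gene Ptprc (898 to 2972 CPM) and Csf1r (1241 to 2678 CPM), the receptor of monocytes and macrophages, were high in all 7 libraries. Cd34 and Kit, which endothelial and mast cells also express, were 0.732 to 20.7 and 2.24 to 11.7 CPM. Among the 10 progenitor markers 8 were tested, and 1 was called higher in LPS Fth1-low than untreated cells (2.99% of all genes). Between the gates 1 was lower in LPS Fth1-high (4.57%), and against untreated 1 was higher and 2 were lower there (12.4% and 11.9%). Gfi1 of this list was 0.500 and 0.280 CPM in untreated and 5.02 (3 counts) and 5.09 CPM in LPS Fth1-low libraries. Ms4a3 and Prss57 were at or near 0 while Gfi1 moved, so these markers do not settle a cell stage. The genes are called here by what they encode.

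The members did not move as a block. Of the 8 in the model, 4 were higher in LPS Fth1-low than in untreated cells at an adjusted p below 0.05 in edgeR's quasi-likelihood test, where 3.62% of all 13665 tested genes were called in either direction and 2.99% higher. None was called lower there in that fit, against 0.629% of all genes, while 1 was lower at an unadjusted p below 0.05 and 1 in DESeq2. Between the 2 gates after LPS the count was 0 higher and 4 lower in LPS Fth1-high cells, against 3.68% and 4.57% of all genes (8.25% in either direction). In that comparison 1 member was higher at an unadjusted p below 0.05, and DESeq2 called 0 higher. In LPS Fth1-high against untreated cells 2 were higher and 1 was lower, against 12.4% and 11.9% of all genes (24.3% in either direction). The median log2 difference of the 8 was 2.51, −2.35 and −0.67 in these 3 comparisons, and that of all tested genes was −0.05, 0.04 and 0.03. The libraries did not overlap between the groups for 7, 6 and 5 of the 8, against 39.5%, 41.3% and 58.1% of all genes. Since the genes were chosen on these contrasts, nothing is read from the counts. The 3 comparisons share libraries and are not independent.

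**Figure D1:**
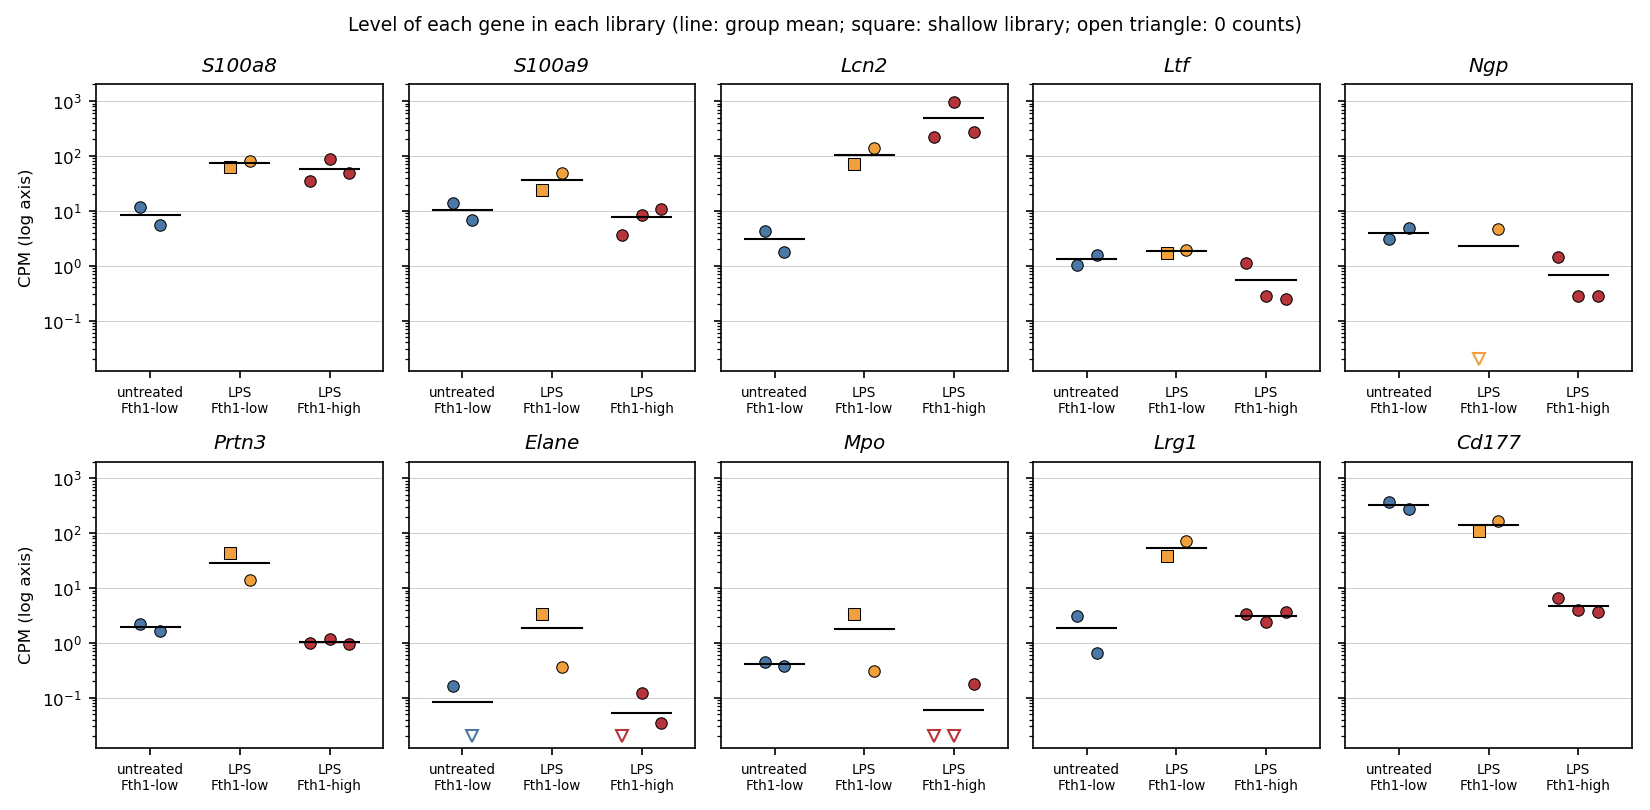
Level of each of the 10 genes in each of the 7 libraries, in CPM on a log axis, with 1 panel per gene and points coloured by group. Lcn2 was highest in the 3 LPS Fth1-high libraries (224 to 955 CPM), Prtn3 and Lrg1 were highest in the 2 LPS Fth1-low libraries, Cd177 was lowest in LPS Fth1-high (3.71 to 6.57 CPM), and Elane and Mpo had at most 11 counts in any library. Lines are group means, the square is the shallow L1 and open triangles mark 0 counts.

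S100a8 and S100a9, the calprotectin chains, lie on chromosome 3 (mm10, S100a8 at 90668978 to 90670035 on the plus strand, S100a9 at 90692632 to 90695721 on the minus strand), with 22596 bases between them. Their upstream sequences are shown because these neighbours, whose proteins work as a pair, had different patterns. Each run is from RefSeq (GRCm38.p6), reads 5′ to 3′ on the gene's own strand and ends just before the first annotated exon. Capitals mark a C/EBP-type (TTGCNNAA) or PU.1-type (GAGGAA) letter match on either strand, both named for transcription factors of myeloid cells.

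S100a8, chr3:90668821-90668977, plus strand: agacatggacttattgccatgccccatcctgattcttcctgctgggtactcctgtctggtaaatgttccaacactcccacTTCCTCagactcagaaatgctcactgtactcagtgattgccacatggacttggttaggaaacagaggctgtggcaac

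S100a9, chr3:90695722-90695971, minus strand: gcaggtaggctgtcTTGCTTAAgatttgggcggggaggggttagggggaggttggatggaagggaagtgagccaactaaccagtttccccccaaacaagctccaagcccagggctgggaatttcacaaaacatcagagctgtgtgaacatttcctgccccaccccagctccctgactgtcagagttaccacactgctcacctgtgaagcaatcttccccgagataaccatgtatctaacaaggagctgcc

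Counted back from the RefSeq start, the S100a8 window of 250 bases held PU.1-type matches at 170 and 36 bases and a TATAAA at 30 bases. The last pair lies inside an annotated exon and is not in the printed run. The S100a9 window held 1 match, of the C/EBP type at 236 bases. Among 27025 promoters of the same length, 9.53% held the C/EBP-type letters, 23.1% the PU.1-type and 12.9% TATAAA. A match is a description of letters and not a bound site.

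S100a8 was 11.6 and 5.5 CPM in the untreated libraries, 63.6 and 82.0 CPM in LPS Fth1-low, and 34.4, 87.9 and 48.9 CPM in LPS Fth1-high. Both LPS groups lay above untreated in every library and overlapped each other. The group means were 8.54 ± 4.30 (SD, n = 2), 72.8 ± 13 (SD, n = 2) and 57.1 ± 27.7 CPM (SD, n = 3). The model gave a log2 difference of 3.10 ± 0.50 (SE) for LPS Fth1-low against untreated (8.56-fold), 2.71 ± 0.46 for LPS Fth1-high against untreated (6.55-fold), and −0.39 ± 0.42 between the gates. With 1 library left out at a time the first ranged from 2.71 without U2 to 3.76 without U1. The second ranged from 2.27 without H2 to 3.37 without U1, and the third from −0.85 without H2 to −0.13 without H1.

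S100a9 was 13.7 and 6.90 CPM in untreated, 23.4 and 48.9 CPM in LPS Fth1-low, and 3.65, 8.49 and 11 CPM in LPS Fth1-high libraries. The LPS Fth1-low libraries were the high ones, and LPS Fth1-high overlapped untreated. The means were 10.3 ± 4.81 (SD, n = 2), 36.2 ± 18.0 (SD, n = 2) and 7.71 ± 3.73 CPM (SD, n = 3). The log2 difference was 1.91 ± 0.55 for LPS Fth1-low against untreated, −2.33 ± 0.48 between the gates (5.04-fold lower in LPS Fth1-high), and −0.42 ± 0.47 for LPS Fth1-high against untreated. With 1 library left out the first ranged from 1.16 without L2 to 2.51 without U1, and the second from −2.67 without H3 to −1.58 without L2. The third had no stable sign: it was −0.81 without U2 and 0.17 without U1.

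The balance of the chains therefore differed by group. S100a8 made up 45.8% (95% Wilson interval 41.9 to 49.8) and 44.4% (36.2 to 52.8) of the counts of both chains in the untreated libraries. The share was 73.1% (59.7 to 83.2) and 62.6% (60.7 to 64.5) in LPS Fth1-low, where the first value rests on 38 S100a8 and 14 S100a9 counts. In LPS Fth1-high it was 90.4% (87.7 to 92.6), 91.2% (90.0 to 92.3) and 81.6% (79.7 to 83.4). The 3 groups did not overlap in this share, although the interval of L1 reaches that of H3. The intervals cover counting error only, and the share follows from the differences of the 2 genes above and is no separate evidence.

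**Figure D2:**
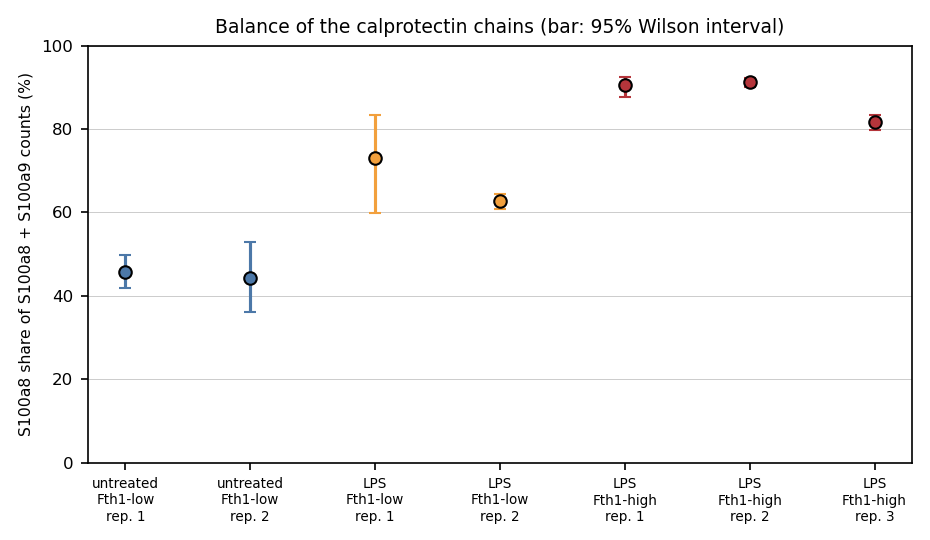
S100a8 as a percentage of the summed S100a8 and S100a9 counts, 1 point per library with its 95% Wilson interval, by group. The share was 44.4% to 45.8% in untreated, 62.6% to 73.1% in LPS Fth1-low and 81.6% to 91.2% in LPS Fth1-high libraries, and the widest interval belongs to the shallow L1.

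Lcn2 (chromosome 2, 32384633 to 32388252, minus strand) encodes lipocalin 2, which binds bacterial iron carriers and is stored in secondary granules. It was 4.25 and 1.77 CPM in untreated, 70.3 and 138.9 CPM in LPS Fth1-low, and 223.7, 955 and 270.0 CPM in LPS Fth1-high libraries. The 3 groups did not overlap and stood in this order, the reverse of the order for Cd177 below. The means were 3.01 ± 1.75 (SD, n = 2), 104.6 ± 48.5 (SD, n = 2) and 483 ± 409.7 CPM (SD, n = 3), and H2 was far above the other 2 of its group. The log2 difference was 5.11 ± 0.93 for LPS Fth1-low against untreated (34.5-fold) and 7.25 ± 0.99 for LPS Fth1-high against untreated (152-fold). Between the gates it was 2.14 ± 0.76 (4.41-fold higher in LPS Fth1-high), and 1.16 without H2 and 2.79 without L2. LPS Fth1-low against untreated was 4.45 without L2 and 5.93 without U1. LPS Fth1-high against untreated was 6.30 without H2 and 8.08 without U1.

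The other secondary granule genes stayed low. Ltf (chromosome 9, 111019271 to 111042767), the iron-binding lactoferrin, had 25 and 17 counts in untreated, 1 and 38 in LPS Fth1-low, and 17, 7 and 7 in LPS Fth1-high libraries, which is 0.247 to 1.95 CPM. Ngp (chromosome 9, 110419747 to 110423012), neutrophilic granule protein of the cystatin and cathelicidin kind, had 74 and 53, 0 and 89, and 22, 7 and 8 counts, or 0 to 4.94 CPM. Both genes had their lowest CPM in H2 and H3 among the libraries with any count. The log2 differences were 0.53 ± 0.96, −1.81 ± 0.88 and −1.28 ± 0.81 for Ltf in LPS Fth1-low against untreated, LPS Fth1-high against LPS Fth1-low and LPS Fth1-high against untreated. Those of Ngp were −0.26 ± 0.98, −2.36 ± 0.91 and −2.62 ± 0.87 in the same order. Leaving out H1 moved both genes: LPS Fth1-high against LPS Fth1-low and against untreated then gave −2.80 and −2.26 for Ltf and −3.55 and −3.78 for Ngp. The 0 counts of Ngp in L1 allow up to 5.02 CPM, which is above every other Ngp value, so that library adds nothing on this gene. Without L2, when only that library stands for the group, the fitted Ngp values (−9.12 against untreated and 6.48 between the gates) are no measure of it. The first Ngp value was 0.23 without L1.

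Prtn3, Elane and Mpo are primary granule genes that are switched on together in promyelocytes. Prtn3 (proteinase 3) and Elane (neutrophil elastase) are close neighbours on chromosome 10, at 79874476 to 79883174 and 79886247 to 79888215, with 3072 bases between them. Prtn3 had 54 and 18 counts in untreated, 26 and 274 in LPS Fth1-low, and 15, 29 and 27 in LPS Fth1-high libraries. In CPM that is 2.25 and 1.68, 43.5 and 14.1, and 0.995, 1.18 and 0.954, so both LPS Fth1-low libraries were above the other 5. The means were 1.96 ± 0.404 (SD, n = 2), 28.8 ± 20.8 (SD, n = 2) and 1.04 ± 0.119 CPM (SD, n = 3).

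The log2 difference of Prtn3 was 3.74 ± 0.59 for LPS Fth1-low against untreated (13.4-fold), −4.66 ± 0.53 between the gates (25.3-fold lower in LPS Fth1-high) and −0.92 ± 0.50 for LPS Fth1-high against untreated. The first was 2.86 without L1 and 4.44 without L2. The second was −3.77 without L1 and −5.36 without L2, and the third was −0.68 without U1 and −1.09 without U2. The annotated Prtn3 gene overlaps exons of Plppr3 on the opposite strand, and the strand setting of the count is not given in the sources used here. Plppr3 was 4.79 and 8.58 CPM in untreated, 11.7 and 8.23 CPM in LPS Fth1-low and 7.30, 3.98 and 5.05 CPM in LPS Fth1-high libraries. Its part in the Prtn3 values was not tested.

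Elane and Mpo had almost no counts. Elane had 4 and 0 counts in untreated, 2 and 7 in LPS Fth1-low, and 0, 3 and 1 in LPS Fth1-high libraries. Mpo (myeloperoxidase, chromosome 11, 87793581 to 87804413) had 11 and 4, 2 and 6, and 0, 0 and 5 counts. The 2 counts of each gene in the shallow L1 give 3.35 CPM, while in L2 the levels were 0.360 CPM for Elane and 0.309 CPM for Mpo. Both were too sparse to test at this depth. L2 thus held 274 counts of Prtn3 beside 7 of Elane and 6 of Mpo. All 3 promoters carry the PU.1-type letters, at 95 bases before the RefSeq start in Prtn3, 85 in Elane and 247 and 224 in Mpo. Prtn3 also has NF-kB-type letters (GGGA followed after 4 free bases by CC, on either strand, in 17.3% of promoters) at 209 bases. These RefSeq starts are 79879667 for Prtn3, 79886312 for Elane and 87793784 for Mpo. Each lies inside the gene interval given above, and that of Prtn3 lies far from the interval's first base.

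Lrg1 and Cd177 are shown with their upstream sequences because Lrg1 was higher and Cd177 lower in LPS Fth1-low than in untreated libraries, and both were low in the Fth1-high gate. Capitals mark the PU.1-type letters and the TATAAA of Cd177. The Lrg1 run, and the whole window of 250 bases it belongs to, held no match to the 5 motifs searched (the 3 above and the NF-kB and STAT types, the last spelled TTCNNNGAA and present in 7.11% of promoters).

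Lrg1, chr17:56122002-56122196, minus strand: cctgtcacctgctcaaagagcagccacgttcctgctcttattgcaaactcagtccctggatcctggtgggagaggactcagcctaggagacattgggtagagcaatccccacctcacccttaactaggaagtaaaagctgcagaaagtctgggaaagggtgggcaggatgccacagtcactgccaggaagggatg

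Cd177, chr7:24760312-24760561, minus strand: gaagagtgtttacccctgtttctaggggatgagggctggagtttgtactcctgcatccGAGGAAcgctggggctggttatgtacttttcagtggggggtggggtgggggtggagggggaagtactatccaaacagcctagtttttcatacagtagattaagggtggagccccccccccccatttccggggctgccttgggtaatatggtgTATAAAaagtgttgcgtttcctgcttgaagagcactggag

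Lrg1 (chromosome 17, 56119678 to 56122001) encodes a secreted leucine-rich glycoprotein that binds TGF-beta receptor complexes and is stored in neutrophil granules. It was 3.08 and 0.653 CPM in untreated, 38.5 and 70.6 CPM in LPS Fth1-low, and 3.32, 2.40 and 3.64 CPM in LPS Fth1-high libraries. Only the LPS Fth1-low libraries were high, and LPS Fth1-high overlapped untreated. The means were 1.87 ± 1.72 (SD, n = 2), 54.5 ± 22.7 (SD, n = 2) and 3.12 ± 0.645 CPM (SD, n = 3). The log2 difference was 4.82 ± 0.59 for LPS Fth1-low against untreated (28.2-fold), −4.20 ± 0.48 between the gates (18.4-fold lower in LPS Fth1-high) and 0.62 ± 0.51 for LPS Fth1-high against untreated. The first ranged from 4.24 without U2 to 6.44 without U1, and was 8.12 when all libraries were thinned to the shallowest. The second ranged from −4.52 without L1 to −3.62 without L2. The third rests on the untreated libraries: it was 0.02 without U2, 2.24 without U1, and 3.85 when all libraries were thinned.

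Cd177 (chromosome 7, 24743983 to 24760311) encodes a GPI-anchored surface protein. It was 376 and 276 CPM in untreated, 110.5 and 169.9 CPM in LPS Fth1-low, and 6.57, 3.90 and 3.71 CPM in LPS Fth1-high libraries. The 3 groups did not overlap and fell in that order. The means were 326 ± 71.1 (SD, n = 2), 140.2 ± 42.0 (SD, n = 2) and 4.73 ± 1.60 CPM (SD, n = 3). The log2 difference was −1.18 ± 0.33 for LPS Fth1-low against untreated (2.27-fold lower), with −1.58 without L2 and −0.91 without L1. It was −4.94 ± 0.33 between the gates (30.8-fold lower in LPS Fth1-high) and −6.13 ± 0.34 for LPS Fth1-high against untreated (69.9-fold lower). With single libraries left out these last values stayed between −5.24 and −4.56 and between −6.42 and −5.89. The 7 nonclassical monocyte markers had the same order of group means. Among them Cx3cr1 and Eno3 overlapped between the gates: they were 113.8 and 11.7 CPM in L1 and 121.0 and 12.8 CPM in H3. Of the 7, 4 were called lower in LPS Fth1-low than untreated cells, 6 between the gates and 7 in LPS Fth1-high against untreated. The shares of all genes called lower there were 0.629%, 4.57% and 11.9%. Together the 7 summed to 8716 and 10152 CPM in untreated, 3938 and 4171 CPM in LPS Fth1-low and 1192 to 1486 CPM in LPS Fth1-high libraries. Ear2, counted with both the eosinophil and the alveolar macrophage markers, had the order of Cd177 (446.7 to 4.39 CPM). So did Ear1 of the eosinophil list (6.95 to 0.406 CPM), while Epx and Prg2 were at or below 0.0932 CPM in all 7 libraries. Of 7 alveolar macrophage markers, 1, 2 and 3 were called lower in the 3 comparisons, against the same shares. In LPS Fth1-high against untreated 1 was higher (12.4% of all genes). Pparg was 35.5 and 40.2, 3.35 and 13.1, and 0.863, 1.38 and 4.67 CPM, while Marco was lowest in untreated libraries. The part of these genes in the Cd177 values was not tested.

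**Figure D3:**
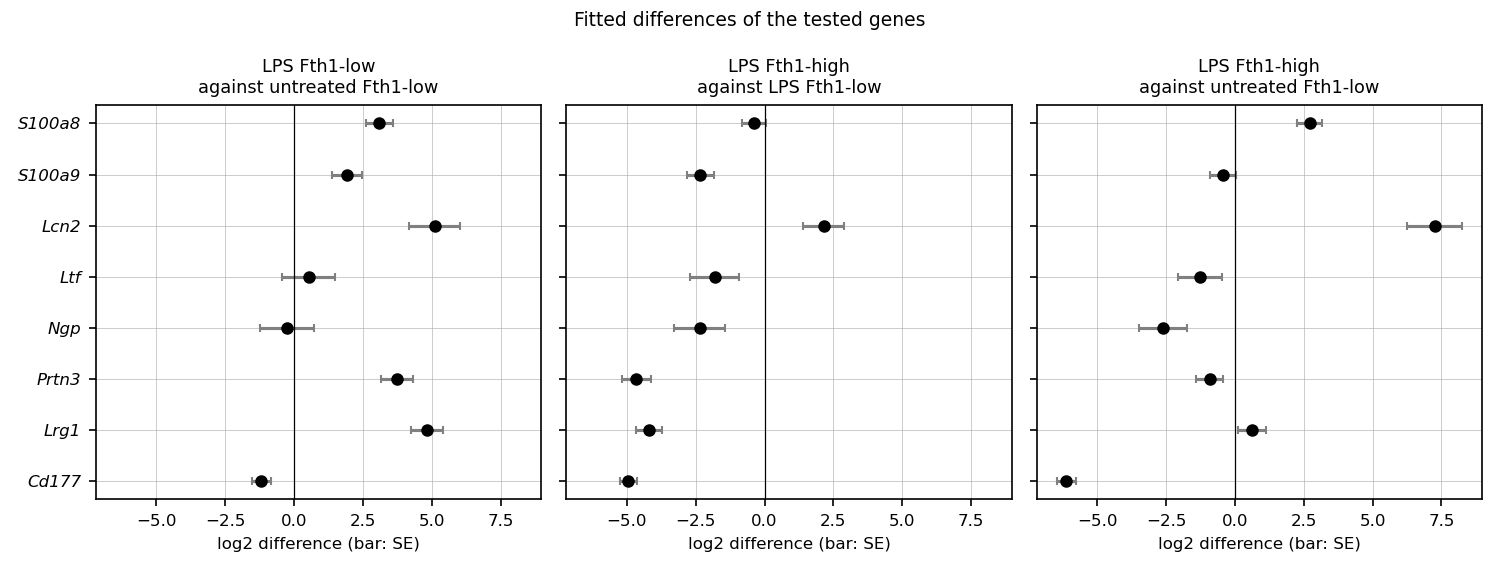
Log2 difference of the 8 genes in the model for each of the 3 comparisons, as points with bars of 1 standard error. LPS Fth1-low lay above untreated by 3.10 to 5.11 for S100a8, Prtn3, Lrg1 and Lcn2, LPS Fth1-high against LPS Fth1-low gave −4.94 to −4.20 for Lrg1, Prtn3 and Cd177 and 2.14 for Lcn2.

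Compared per kilobase of annotated exons, merged over all transcripts of a gene, the order of the levels differed by group. The merged length can exceed that of the transcript a cell makes. In untreated cells Cd177 led with a mean of 114.9 CPM per kilobase, followed by S100a9 at 19.7 and S100a8 at 12.3. S100a9 was above S100a8 within each untreated library, and the other 7 genes were at or below 3.28. In LPS Fth1-low cells S100a8 led at 104.9 CPM per kilobase, then came S100a9 at 69.3, Cd177 at 49.4, Lcn2 at 39.9, Lrg1 at 38.7 and Prtn3 at 16.6. Within L1 and within L2 that order was the same, except that Lrg1 was above Lcn2 in L1. In L1 the values of these genes rest on 14 to 66 counts. In LPS Fth1-high cells Lcn2 led at 184 CPM per kilobase, and S100a8 had 82.3 and was below Lcn2 within each library. S100a9 had 14.8, and the other 7 were at or below 2.21.

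Genes with the most similar profile were taken among 7990 tested genes of at least 10 CPM by the Pearson correlation of log2 CPM over the 7 libraries. The correlations are descriptions, and the libraries fall into 3 groups that set most of each value. For S100a8 the nearest were Snx14 (r = 0.988), Ccr1 (0.987) and Prdx5 (0.975). Ccr1, a chemokine receptor, was 29.9 and 13.6 CPM in untreated, 167 and 253 CPM in LPS Fth1-low and 136, 226 and 178 CPM in LPS Fth1-high libraries. Snx14 had the same shape over a small range, 34.8 to 44.8 CPM. For Lcn2 they were Ift22 (0.995), Ccdc86 (0.995) and Plscr1 (0.994), and Plscr1 ran from 7.46 CPM in untreated to 49.8 CPM in LPS Fth1-high libraries. For Cd177 they were Tmem71 (0.998), Lsp1 (0.997) and Cd300lg (0.997). Lsp1, an actin-binding protein of leukocytes, was 1769 and 1469 CPM in untreated, 706.5 and 1035 CPM in LPS Fth1-low and 103 to 114 CPM in LPS Fth1-high libraries. For Prtn3 they were Casp4 (0.977, and 0.954 without L1), Bcl3 (0.967, and 0.922 without L1) and Camk2g (0.965, and 0.905 without L1). Casp4, the inflammatory caspase that senses LPS in the cytosol, was 115 to 132 CPM in LPS Fth1-low and 60.1 to 66.6 CPM in the other 5 libraries. For Lrg1 they were Nfkbib (0.963), Ppp1r3d (0.962) and March5 (0.956). Apart from those of Prtn3, all values named here stayed at or above 0.952 without L1.

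The members were set beside 93 companion genes of the same granules and pathways, 92 of them in the table and 75 in the model. In LPS Fth1-low against untreated cells 11 of the 75 were called higher, against 2.99% of all genes. In edgeR 0 were called lower, against 0.629%, although 2 were lower at an unadjusted p below 0.05 and DESeq2 called 1 (Pglyrp1). Between the gates 4 were higher and 11 lower in LPS Fth1-high cells, against 3.68% and 4.57%, and in LPS Fth1-high against untreated cells 17 were higher and 14 lower, against 12.4% and 11.9%. The medians of the 75 were 0.15, −0.28 and 0.01 on the log2 scale. Counts per list given below stand against the same shares of all genes, and nothing is read from them.

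**Figure D4:**
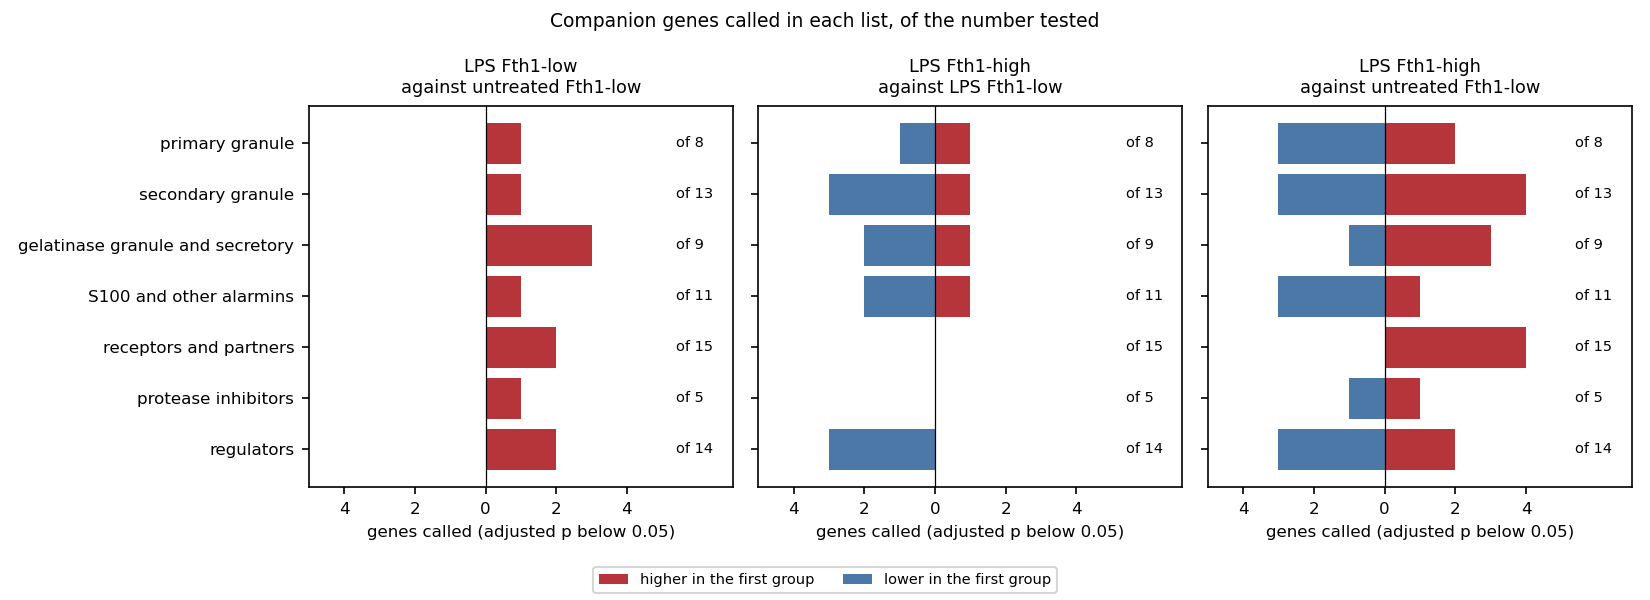
Number of companion genes called at an adjusted p below 0.05 in each of 7 lists, to the right where higher and to the left where lower in the first-named group, with the number tested at the right edge. The bars of LPS Fth1-low against untreated all point to the right, while between the gates 11 of the 15 called genes were lower in LPS Fth1-high cells.

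Of 8 primary granule companions tested, 1 was called higher in LPS Fth1-low against untreated (2.99% of all genes). Between the gates 1 was higher and 1 lower (3.68% and 4.57% of all genes). In LPS Fth1-high against untreated 2 were higher and 3 lower (12.4% and 11.9%). Ctsc, which trims granule proteases into active form, was 558 and 668 CPM in untreated, 1125 and 1922 in LPS Fth1-low and 1581, 1395 and 1496 in LPS Fth1-high libraries. Its adjusted p was 0.041 for LPS Fth1-low against untreated (log2 difference 1.32 ± 0.29), and this call was lost without any 1 library except L1 (adjusted p up to 0.32). Srgn, the proteoglycan core that packs granule contents, fell from 1368 and 1241 CPM in LPS Fth1-low to 400.1, 564 and 469.6 CPM in LPS Fth1-high libraries (log2 difference −1.45 ± 0.22, adjusted p = 0.004). Cd63, a membrane protein of primary granules and lysosomes, was 8.37 and 6.74 CPM in LPS Fth1-low and 37.0, 67.5 and 100.4 CPM in LPS Fth1-high libraries (3.29 ± 0.52, adjusted p = 0.0053, and 0.12 without L2). Ctsg, cathepsin G, had 15 and 11 counts in untreated and 0 to 5 in the other libraries. It was called lower in LPS Fth1-high than untreated cells (26 counts in the untreated and 1 in the LPS Fth1-high libraries, adjusted p = 0.011), but not without U2 (adjusted p = 0.061).

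Of 13 secondary granule companions, 1 rose in LPS Fth1-low against untreated, and 1 rose and 3 fell between the gates. Pglyrp1, a peptidoglycan-binding protein of these granules, was 81.2 and 62.5 CPM in untreated, 26.8 and 24.4 CPM in LPS Fth1-low and 0.863, 0.772 and 2.01 CPM in LPS Fth1-high libraries. It fell between the gates by 4.31 ± 0.38 on the log2 scale (adjusted p = 0.00031), and the value was −4.94 without H3 and −7.50 when all libraries were thinned to the shallowest. Its 3 groups stood in the order of Cd177. Wfdc21, a small secreted WAP-domain protein, was 0.333 and 0.653 CPM in untreated, 31.8 and 20.4 CPM in LPS Fth1-low and 6.37, 40.1 and 23.2 CPM in LPS Fth1-high libraries. Its rise in LPS Fth1-low (5.72 ± 0.99, adjusted p = 0.021) was not called without any 1 library of those 2 groups (adjusted p 0.074 to 0.20).

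Chil3, a chitinase-like protein of monocytes and alveolar macrophages, was lower in the Fth1-high gate (log2 difference −2.13 ± 0.52, adjusted p = 0.04). That call was lost without 5 of the 7 libraries, with −1.62 without L2 and −2.91 without H2. Anxa1, a calcium-dependent phospholipid-binding protein, was lower there too (−1.23 ± 0.28, adjusted p = 0.025), and its call was lost without 4 libraries (adjusted p up to 0.13). Orm1, an acute-phase protein, was at or below 0.514 CPM in the Fth1-low libraries and 7.36, 16.1 and 16.1 CPM in LPS Fth1-high. The log2 difference between the gates was 4.76 ± 0.85 (adjusted p = 0.0087), and without L2, which held the only counts of its group, the adjusted p was 0.13. Slpi, an inhibitor of neutrophil elastase, was higher in LPS Fth1-high than untreated cells (1.40 ± 0.31, adjusted p = 0.0089, and 0.088 without U2).

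Among 9 gelatinase granule and secretory vesicle genes, 3 rose in LPS Fth1-low against untreated, and 1 rose and 2 fell between the gates. Mmp25, a membrane-bound metalloproteinase of leukocytes, was 1.12 and 1.21 CPM in untreated, 20.1 and 21.0 CPM in LPS Fth1-low and 3.12, 3.90 and 3.25 CPM in LPS Fth1-high libraries. Like Lrg1 and Prtn3 it was highest in LPS Fth1-low. It rose there by 4.14 ± 0.39 (adjusted p = 0.00041) and was lower in LPS Fth1-high than LPS Fth1-low by a log2 difference of −2.59 ± 0.31 (adjusted p = 0.0013), and both calls were kept with any 1 library left out. With all libraries thinned the rise was 6.79. Mmp8, a collagenase, was 78.2 and 71.2 CPM in untreated, 68.6 and 187 CPM in LPS Fth1-low and 19.6, 36.6 and 13.9 CPM in LPS Fth1-high libraries. Its difference between the gates was −2.53 ± 0.46 (adjusted p = 0.011), and −1.54 with an adjusted p of 0.16 without L2.

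The formyl peptide receptors Fpr1 and Fpr2, which sense bacterial and mitochondrial peptides, had the order of Lcn2. Fpr2 was 33 and 25.8 CPM in untreated, 189 and 331 CPM in LPS Fth1-low and 566, 922 and 556 CPM in LPS Fth1-high libraries. Its rise in LPS Fth1-low (3.17 ± 0.37, adjusted p = 0.0014) was called with any 1 library left out and ranged from 2.66 to 3.52. Its rise between the gates (1.36 ± 0.33, adjusted p = 0.033) was not called without L1 (adjusted p = 0.16), without H2 (0.086) or without either untreated library (0.050 and 0.061). Fpr1 was 4.41 and 1.49, 16.7 and 98.3, and 172, 352 and 169.9 CPM. Its rise in LPS Fth1-low was 4.40 ± 0.83 (adjusted p = 0.034), and it was 2.39 with an adjusted p of 0.27 without L2. The call was also lost without either untreated library and without H1 or H3.

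Of 11 other S100 proteins and alarmins, 1 rose in LPS Fth1-low against untreated, and 1 rose and 2 fell between the gates. S100a4, an S100 protein of motile cells, was 1001 and 756 CPM in untreated, 897 and 643 CPM in LPS Fth1-low and 66.9, 107.7 and 140.5 CPM in LPS Fth1-high libraries. It was lower in LPS Fth1-high than LPS Fth1-low by a log2 difference of −2.87 ± 0.32 (adjusted p = 0.00088), and this was called with any 1 library left out. S100a6 was lower by −1.36 ± 0.30 (adjusted p = 0.021), and −0.82 with an adjusted p of 0.1 without L1, and the call was also lost without any 1 LPS Fth1-high library. S100a10 and S100a11 were not called in any of the 3 comparisons, with log2 differences from −0.49 to 0.80. Il1a, a cytokine that is itself an alarmin, was 2.21 and 0.653 CPM in untreated, 55.2 and 202 CPM in LPS Fth1-low and 423, 761 and 748 CPM in LPS Fth1-high libraries, again the order of Lcn2. It rose by 6.44 ± 0.75 in LPS Fth1-low against untreated (adjusted p = 0.0022), with 5.10 without L2 and 7.69 without U1. Its difference between the gates was 2.23 ± 0.57 (adjusted p = 0.049). Without L1, or without H2 or H3, that adjusted p was 0.13 to 0.15, and without L2 the difference was 3.55.

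Receptors and partners of the members rose in 2 of 15 cases in LPS Fth1-low against untreated. Tlr4, the LPS receptor that also responds to calprotectin, was 17.1 and 16.8 CPM in untreated, 31.8 and 55.9 CPM in LPS Fth1-low and 78.4, 92.5 and 86.3 CPM in LPS Fth1-high libraries. Its rise in LPS Fth1-low was 1.48 ± 0.26 (adjusted p = 0.013), and 0.89 with an adjusted p of 0.12 without L2. The adjusted p was 0.11 and 0.12 without U1 and U2. Against untreated, LPS Fth1-high cells were higher by 2.34 ± 0.24 (adjusted p = 0.00013). Cd69, an activation receptor reported to bind calprotectin, was 24.7 and 25.8, 90.4 and 150.5, and 80.3, 65.6 and 89.9 CPM, and rose by 2.30 ± 0.28 in LPS Fth1-low (adjusted p = 0.0017, called with any 1 library left out). Ager, the receptor RAGE, was not called, and its 41.9 CPM in U1 stood beside 494 CPM of the epithelial gene Sftpc there, against 1.40 to 68.2 CPM in the other libraries. Between the gates edgeR called 0 of the 15 in either direction, while 6 were higher and 2 lower at an unadjusted p below 0.05 and DESeq2 called 5 and 1.

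The protease inhibitor Serpina3g was 10.9 and 7.55 CPM in untreated, 179 and 292 CPM in LPS Fth1-low and 216, 219.8 and 156 CPM in LPS Fth1-high libraries. It was the 1 of 5 tested inhibitors that rose in LPS Fth1-low against untreated (4.69 ± 0.35, adjusted p = 0.00012), and it was called with any 1 library left out. Serpina3 genes are related in sequence and may share reads. Serpinb1a, an inhibitor of elastase and proteinase 3, was 12.4 and 7.92 CPM in untreated, 10.0 and 7.25 CPM in LPS Fth1-low and 2.19, 0.203 and 1.20 CPM in LPS Fth1-high libraries. It was lower in LPS Fth1-high than untreated cells by −3.12 ± 0.70 (adjusted p = 0.011), and the adjusted p was 0.071 without U1.

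Of 14 regulators of granule genes, 2 rose in LPS Fth1-low against untreated and 3 fell between the gates. Cebpd, a C/EBP transcription factor, was 61.2 and 61.6 CPM in untreated, 56.9 and 51.3 CPM in LPS Fth1-low and 13.7, 16.1 and 19.8 CPM in LPS Fth1-high libraries. It was lower in the Fth1-high gate by −1.69 ± 0.21 (adjusted p = 0.0015), called with any 1 library left out. Cebpe, the C/EBP factor of secondary granule genes, was at 0.597 to 5.02 CPM, and its difference between the gates (−2.29 ± 0.60, adjusted p = 0.049) lost its call with every single library left out (adjusted p 0.075 to 0.15). Spi1, which encodes PU.1, was 519 and 589 CPM in LPS Fth1-low and 273, 324.8 and 306 CPM in LPS Fth1-high libraries. The difference was −0.88 ± 0.19 (adjusted p = 0.022), and 5 of 7 left-out libraries ended the call, with an adjusted p up to 0.094.

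Gfi1, a repressor needed for granulocyte development, was 0.500 and 0.280 CPM in untreated, 5.02 and 5.09 CPM in LPS Fth1-low and 2.72, 7.07 and 3.71 CPM in LPS Fth1-high libraries. It rose in LPS Fth1-low by 3.61 ± 0.68 (adjusted p = 0.019), but the 5.02 CPM of L1 is 3 counts, and the adjusted p was 0.10 to 0.15 without U1, U2 or L2. Csf2rb, the shared receptor chain for GM-CSF, was 243 and 293, 732 and 772, and 788, 944 and 895 CPM. It rose in LPS Fth1-low by 1.49 ± 0.23 (adjusted p = 0.0066), with 0.11 and 0.055 without U1 and U2. Csf3r, the G-CSF receptor, was not called in any comparison (272 to 497 CPM).

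Markers of other cells moved in part with the members. Of 5 dividing-cell genes 1 was called, higher in all 3 comparisons, against 2.99%, 3.68% and 12.4% of all genes. This gene, Mki67, was 8.91 and 13.2 CPM in untreated, 41.9 and 39.0 CPM in LPS Fth1-low and 78.6, 141.5 and 91.6 CPM in LPS Fth1-high libraries, the order of Lcn2, with H2 the highest for both genes. The other 4 did not have that order: Top2a was 5.58 and 5.03, 25.1 and 5.86, and 11.7, 9.96 and 12.1 CPM, and Cdk1, Ccnb2 and Birc5 were at or below 8.37 CPM. The summed level of 8 classical monocyte markers was 7833 and 7942 CPM in untreated, 11290.4 and 13476 CPM in LPS Fth1-low and 5432 to 9025 CPM in LPS Fth1-high libraries, and that sum was highest in LPS Fth1-low. Its genes differed: Vcan was 386.7 and 425.8 CPM in LPS Fth1-low and 14.8 to 81.0 CPM elsewhere, Ly6c2 was highest in LPS Fth1-high (1854 to 2980 CPM), Ifitm6 was highest in untreated libraries (487.8 and 327 CPM), and Chil3 is also a companion gene. Of the 8, 1 was called higher in LPS Fth1-low than untreated cells (2.99% of all genes), and 5 were called lower between the gates (4.57% of all genes). The part of either list in the members' values was not tested. The summed level of 8 epithelial markers was 784 CPM in U1, 3.82 CPM in U2 and 14.1 to 123.9 CPM elsewhere. No epithelial or endothelial marker was called in any of the 3 comparisons.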

How the data were processed

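Polyadenylated RNA of sorted lung myeloid cells was sequenced in 7 libraries. The deposited values are raw counts per gene, whole numbers; per the submitters' processing notes the pipeline named DRAGEN, DESeq2 and mm10, and the authors' annotation and strand setting were not stated. They were fitted with edgeR 4.0.16 (R 4.3.3): filterByExpr left 13665 genes, TMM scaled the libraries, and a robust quasi-likelihood fit of all 3 groups together gave two-sided tests with Benjamini-Hochberg adjustment over all tested genes. Genes with an adjusted p below 0.05 were called. A standard error is the log2 difference over the square root of F. For correlations, log2 CPM was computed with prior count 2.

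The 10 members, the companion lists and the markers were chosen with earlier results of these data known. Members therefore carry no p-value of their own, and the adjusted p-values of companion genes, from the fit of the whole table, are not independent evidence. Companion genes named were up to 5 called genes per list and comparison by adjusted p, of which some are left out. Gene positions are of GENCODE vM21, and upstream sequences of RefSeq. The procedure was tested on simulated data. Alternatives were RLE or upper-quartile scaling, the Wald test of DESeq2 1.42.0, no filter, fits of 2 groups, a replicate block, thinning to the shallowest library, and each library left out.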

Additional observations from a re-analysis of the deposited data

How the results depend on the processing

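No called difference of a member or companion gene changed sign under any alternative run. Of 57 called companion differences, the call was kept in 360 of 389 values from other settings and in 298 of 397 with 1 library left out. Leaving out L1, L2, U1 or U2 leaves that group with 1 library, which is then assumed to vary like the other groups. The depth of L1 (3 counts equal 5.02 CPM) limits what can be said of every sparse gene in that group. The causes of the shifts below were not tested.

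For LPS Fth1-low against untreated cells (409 higher, 86 lower), DESeq2 called 620 and 188 genes, and the replicate block 165 lower. Companion genes called lower there numbered 0, and 1 with DESeq2, with no filter, with only the 2 groups compared and with the replicate block. Members called lower there numbered 0, and 1 with DESeq2, no filter, the replicate block and thinning. Of all genes, 188, 118, 165 and 107 were called lower in these settings. Thinning left 2 of 4 members and 347 of 409 genes called higher. Nothing is read from the member counts, here or below. Between the gates, companion genes called higher numbered 4, and 8 with upper-quartile scaling, 9 with DESeq2 and 7 with thinning. For LPS Fth1-high against untreated cells thinning left 977 of 1690 genes higher and 979 of 1625 lower, and 8 companion genes lower where 14 were. There, members called lower numbered 1, and 2 with DESeq2, no filter, only the 2 groups compared and the replicate block. Of all genes, 1639, 1669, 2016 and 1500 were called lower in these settings.

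With 1 library left out in turn, LPS Fth1-low against untreated gave 179 to 386 genes higher and 11 to 249 lower, 5 to 11 companion genes higher and 0 to 1 lower, and 1 to 5 members higher. Between the gates the ranges were 263 to 682 and 379 to 602 genes, and 2 to 5 and 6 to 9 companion genes. LPS Fth1-high against untreated gave 955 to 2184 and 948 to 2012 genes, 6 to 16 companion genes lower and 1 to 2 members lower. Labels do not say that equal replicate numbers mark a shared animal. Deviations from the group mean correlated at −0.04 to 0.29 for same-numbered libraries and at −0.29 to 0.28 for differently numbered ones. In a group of 2 the deviations mirror each other, so these values cannot decide whether libraries are paired. Since the labels say no more, the number is treated as a name and the replicate block only as an alternative.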
